A study of Sus scrofa with 6 samples.

Results

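Cytokine receptor chains of lymphocytes were followed in RNA from peripheral blood mononuclear cells (PBMCs), the blood fraction of lymphocytes and monocytes, of wild-type and leptin-overexpressing pigs. The chains were chosen by name, as the genes whose symbol in the deposited expression table was IL2RB, IL2RG, IL7R, IL4R, IL21R, IL10RA, IL6R, IL6ST, IFNGR1 or IFNAR1. Of these 10 names, 8 had a gene in the table, out of 11564 genes in all, and the rule itself uses symbols and no measured value. IL2RB had no gene under that symbol and is given beside the others through its name in a reference table, while IFNAR1 was not analysed here.

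The series comprised 6 RNA-seq libraries, each from a different Yorkshire pig at 6 months of age, and the comparison addressed how the PBMC transcriptome differed with leptin overexpression. A group of 3 libraries was labelled wild type (WT) and a group of 3 was labelled leptin-overexpressing. According to the study's methods, the leptin pigs were made by nuclear transfer from Yorkshire fetal fibroblasts that had been electroporated with a plasmid carrying the pig leptin reading frame and selected with an antibiotic, and nontransgenic pigs served as controls. The study describes the transgene as driven by the pig leptin promoter. Its vector construction methods name the reading frame and a green fluorescent protein vector, and no leptin promoter step. The donor fibroblasts came from a male fetus. The labels give neither the fibroblast clone nor the sex of the wild-type animals. Values are FPKM, which scales the fragments of a gene to its transcript length and to the sequencing depth of the library, so levels can be compared between genes. The number of reads behind a value is not known, and the replicate numbers 1 to 3 name animals within a group.

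Cytokine receptors of this class have no kinase of their own. Each chain crosses the membrane, and the signalling chains bind a Janus kinase (JAK). When a cytokine brings chains together, the kinases phosphorylate STAT transcription factors, which enter the nucleus. Many receptors pair a private chain, which recognises the cytokine, with a chain shared by several cytokines, such as IL2RG (the common gamma chain) or IL6ST (gp130). In blood, these receptors are known for lymphocyte survival, growth and differentiation, and several of them are also made by monocytes and granulocytes.

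The leptin gene itself went against the labels of 2 libraries. LEP was at 50.0 FPKM in WT replicate 1, 0 in WT replicate 2 and 0.118 in WT replicate 3, and at 0 in leptin replicate 1, 18.3 in leptin replicate 2 and 39.3 in leptin replicate 3. Groups below therefore mean the labelled groups, and the differences between groups are also given without both replicate 1 libraries. Markers of lymphocytes were present in every library: the 15 T cell markers found summed to 1009 to 1730 FPKM, the 8 B cell markers to 428 to 785, and the natural killer (NK) and cytotoxic markers (10 genes found) to 314 to 729. Monocyte markers (8 genes found) summed to 411 to 969 FPKM. Neutrophil markers (7 genes found) were uneven, at 3528 FPKM in WT replicate 1, 1269 in leptin replicate 2 and 412 to 695 in the other 4 libraries. S100A8, S100A9 and S100A12 made up most of this sum in every library. Erythroid markers (3 genes found) summed to 219 FPKM in WT replicate 1 and 21.8 to 103 elsewhere, and platelet markers (7 genes found) to 145 to 473, also highest in WT replicate 1. Summed FPKM over all genes was 444888 to 449653 in the WT libraries and 467276 to 503140 in the leptin libraries. In such mixed cells, fewer cells of a type and less RNA per cell cannot be told apart.

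The 8 chains spanned a 113-fold range of mean level. IL2RG was the highest, at 481 FPKM over the 6 libraries and at the 98.6th percentile of the genes tested, followed by IL4R at 306, IL10RA at 141, IFNGR1 at 57.4, IL6R at 41.8, IL7R at 33.1, IL21R at 4.59 and IL6ST at 4.24. The order IL2RG, IL4R, IL10RA, IFNGR1 held in all 6 libraries, with no overlap between the ranges of neighbours, and IL7R was above IL21R in the same way. The remaining neighbours overlapped. IFNGR1 was above IL6R in 5 of 6 libraries, IL6R above IL7R in 4 of 6, and IL21R above IL6ST in 5 of 6. The place of IL6R depends on which of its overlapping genes is read, since the larger one, described below with IL6R, averaged 76.5 FPKM and was above IFNGR1 in all 6 libraries. The shared chain of the gamma family was thus the most abundant chain, whereas gp130, the shared chain of the IL-6 family, was the least abundant.

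**Figure D1:**
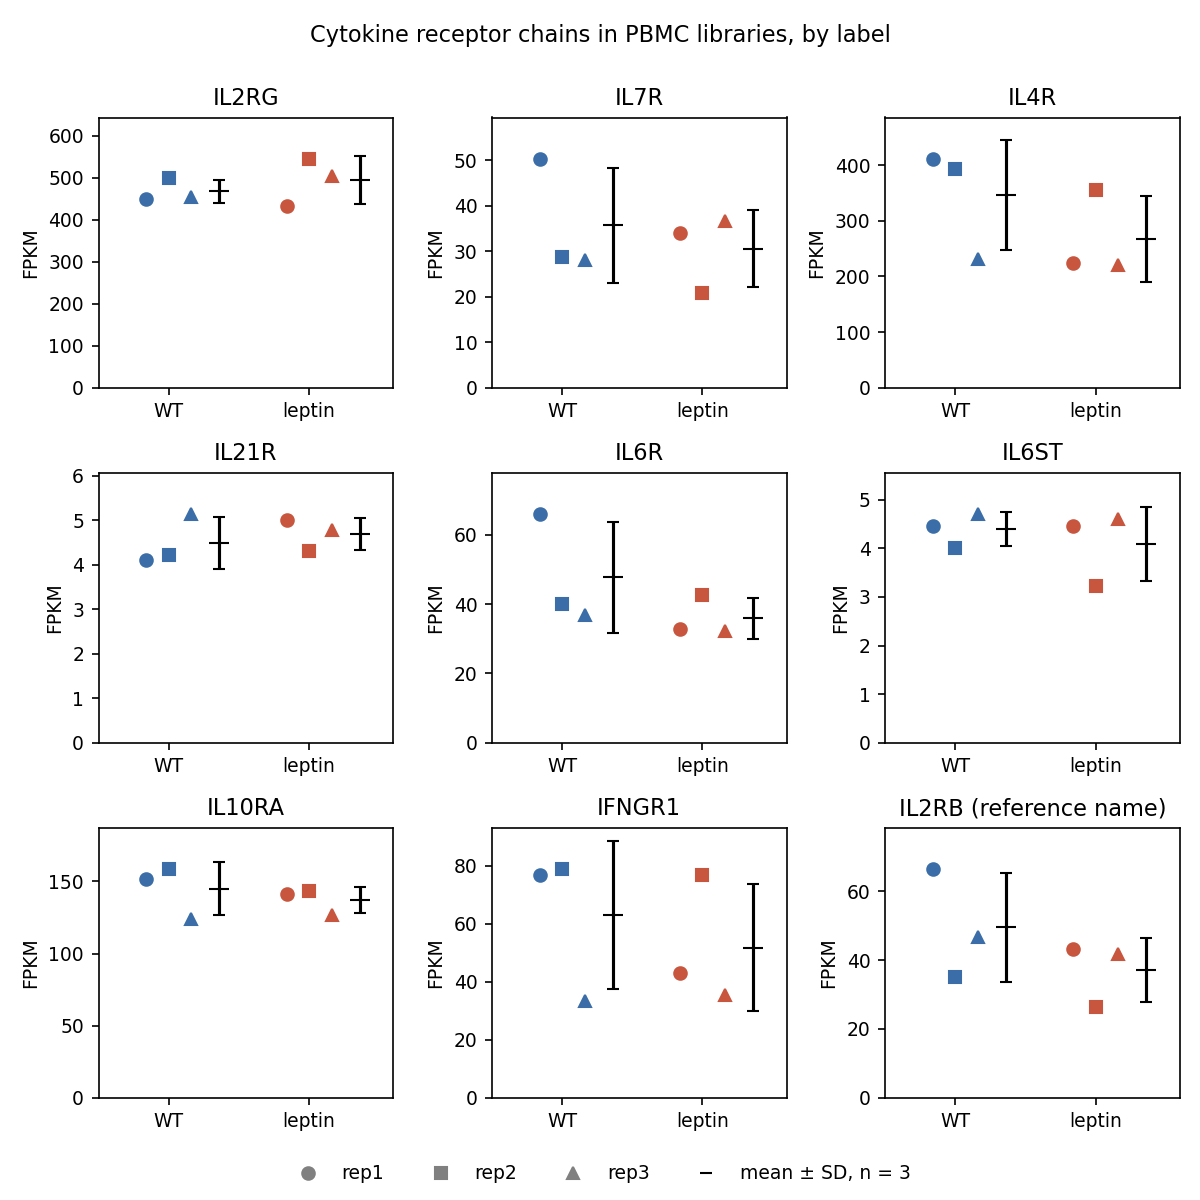
FPKM of each receptor chain on linear axes from 0, 1 panel per chain (with the gene named IL2RB last), with blue points for WT libraries, red points for leptin libraries, marker shape for the replicate number and black bars for mean ± SD (n = 3). IL2RG lies between 432 and 545 FPKM in every library, while IL21R and IL6ST lie between 3.23 and 5.14, and the points of the labelled groups overlap for every chain.

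IL2RG is the common gamma chain, shared by the receptors for IL-2, IL-4, IL-7, IL-9, IL-15 and IL-21, and its loss causes X-linked severe combined immunodeficiency. IL2RG (ENSSSCG00000012397, chromosome X, 64673720 to 64677978) was at 450.0, 499 and 454 FPKM in WT replicates 1, 2 and 3 and at 432, 545 and 505 in leptin replicates 1, 2 and 3. Leptin replicates 2 and 3 were the highest libraries and leptin replicate 1 was the lowest, so the groups overlapped. The group means were 468 ± 27.3 (SD, n = 3) and 494 ± 57.3 FPKM (SD, n = 3), a log2 fold change, leptin minus WT on the log2(FPKM + 1) scale, of 0.07 with a 95% interval of -0.27 to 0.42 (two-sided exact permutation p = 0.6). It was 0.00013 without leptin replicate 2 and 0.17 without leptin replicate 1, with the other single omissions between them. Its spread within groups was small, at the 16.5th percentile of the genes tested.

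IL7R, the private chain of the IL-7 receptor, carries the survival signal of naive T cells and is needed for T cell development. IL7R (ENSSSCG00000016832, chromosome 16, 22282646 to 22313804) was at 50.3, 28.7 and 28.0 FPKM in WT replicates 1 to 3 and at 34.0, 20.8 and 36.7 in leptin replicates 1 to 3. WT replicate 1 was the highest and leptin replicate 2 the lowest, a 2.42-fold range with the other 4 libraries between them. The means of 35.7 ± 12.7 (SD, n = 3) and 30.5 ± 8.50 FPKM (SD, n = 3) differed by a log2 fold change of -0.21, with an interval of -0.87 to 0.46 (exact permutation p = 0.6). The sign turned to 0.063 without WT replicate 1 and to 0.040 without leptin replicate 2.

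IL4R pairs with IL2RG or with IL13RA1 and binds IL-4, which directs helper T cells and antibody class switching. IL4R (ENSSSCG00000007817, chromosome 3, 19846363 to 19869474) was at 412, 394 and 232 FPKM in WT replicates 1 to 3 and at 225, 356 and 221 in leptin replicates 1 to 3. The libraries fell into a high set of WT replicates 1 and 2 and leptin replicate 2 and a low set of the other 3, with a 1.53-fold step between the sets and both labels in each. The means were 346 ± 99.0 (SD, n = 3) and 267 ± 76.8 FPKM (SD, n = 3), a log2 fold change of -0.36 with an interval of -1.0 to 0.28 (exact permutation p = 0.2). The difference was -0.21 without WT replicate 1, -0.25 without WT replicate 2, -0.26 without leptin replicate 1, -0.24 without leptin replicate 3 and -0.59 without leptin replicate 2. Without WT replicate 3, it was -0.63 with an unadjusted limma p of 0.0338, but the adjusted limma p was 0.614 and 7.99% of all genes had an unadjusted p under 0.05 in that setting.

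IL21R binds IL-21, the cytokine of follicular helper T cells that acts on B cells and plasma cells. Its gene (ENSSSCG00000007816, chromosome 3, 19681472 to 19722036) lies 124.3 kb before IL4R on the same chromosome. IL21R was at 4.09, 4.22 and 5.14 FPKM in WT replicates 1 to 3 and at 4.99, 4.30 and 4.77 in leptin replicates 1 to 3. In contrast to IL4R, its 3 highest libraries were WT replicate 3 and leptin replicates 1 and 3. The means of 4.48 ± 0.573 (SD, n = 3) and 4.69 ± 0.357 FPKM (SD, n = 3) gave a log2 fold change of 0.06 with an interval of -0.28 to 0.39 (exact permutation p = 0.7). Leaving out single libraries gave 0.0045 (WT replicate 1) to 0.14 (WT replicate 3). The spread of IL21R within groups was at the 12.6th percentile, the smallest of the 8 chains.

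IL2RB is the signalling chain that the IL-2 and IL-15 receptors share, and NK cells and memory CD8 T cells carry it at high levels. The gene that the reference table names IL2RB (ENSSSCG00000029668, chromosome 5, 8231063 to 8248404) was at 66.6, 35.1 and 46.9 FPKM in WT replicates 1 to 3 and at 43.1, 26.4 and 41.7 in leptin replicates 1 to 3. WT replicate 1 was again the highest and leptin replicate 2 the lowest, with overlap between the groups. Its log2 fold change was -0.39, with an interval of -1.02 to 0.24 (exact permutation p = 0.4), and was -0.28 without both replicate 1 libraries. It was nearer 0 without WT replicate 1 (-0.16) or leptin replicate 2 (-0.17) and farther from it without WT replicate 2 (-0.61). It is not counted among the 8 chains below.

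IL6R recognises IL-6 and then recruits IL6ST, and is known from T cells, monocytes and hepatocytes. IL6R (ENSSSCG00000006549, chromosome 4, 104223858 to 104235575) was at 66.1, 40.1 and 36.9 FPKM in WT replicates 1 to 3 and at 32.8, 42.7 and 32.2 in leptin replicates 1 to 3. WT replicate 1 stood above the other 5 libraries, which lay within 32.2 to 42.7. The means of 47.7 ± 16.0 (SD, n = 3) and 35.9 ± 5.91 FPKM (SD, n = 3) gave a log2 fold change of -0.36 with an interval of -0.92 to 0.19 (exact permutation p = 0.3). Without WT replicate 1 it was -0.11, and with any other library left out it was -0.29 to -0.52.

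The IL6R value is uncertain because a larger gene without a symbol (ENSSSCG00000027628, chromosome 4, 104198430 to 104250107), which the reference table also names IL6R, contains it. The counting could have split reads between the overlapping genes. The larger gene was at 98.0, 85.7 and 56.8 FPKM in WT replicates 1 to 3 and at 61.2, 96.9 and 60.5 in leptin replicates 1 to 3. It placed WT replicates 1 and 2 and leptin replicate 2 highest, as IL6R did, and its log2 fold change was -0.14 (exact permutation p = 0.9), turning to 0.026 without WT replicate 1.

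IL6ST, gp130, transmits the signal for IL-6, IL-11, LIF, oncostatin M and related cytokines. IL6ST (ENSSSCG00000016916, chromosome 16, 37476139 to 37522640) was at 4.46, 4.01 and 4.71 FPKM in WT replicates 1 to 3 and at 4.45, 3.23 and 4.60 in leptin replicates 1 to 3. Leptin replicate 2 was the lowest, and the other 5 libraries lay between 4.01 and 4.71. The log2 fold change was -0.09, with an interval of -0.47 to 0.28 (exact permutation p = 0.6), and became 0.036 when leptin replicate 2 was left out.

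IL10RA, the ligand-binding chain for IL-10, conveys an anti-inflammatory signal to lymphocytes and macrophages. IL10RA (ENSSSCG00000015085, chromosome 9, 50364899 to 50379299) was at 152, 159 and 124 FPKM in WT replicates 1 to 3 and at 142, 144 and 127 in leptin replicates 1 to 3. The highest and the lowest library were both WT, and the whole range was 1.28-fold. The means of 145 ± 18.3 (SD, n = 3) and 137 ± 9.25 FPKM (SD, n = 3) gave a log2 fold change of -0.07 with an interval of -0.43 to 0.29 (exact permutation p = 0.6). With 1 library left out it ran from -0.0013 (without WT replicate 2) to -0.18 (without WT replicate 3).

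IFNGR1 binds interferon gamma, the main macrophage-activating product of T and NK cells. IFNGR1 (ENSSSCG00000004156, chromosome 1, 30388404 to 30408868) was at 76.7, 79.0 and 33.5 FPKM in WT replicates 1 to 3 and at 43.1, 76.7 and 35.5 in leptin replicates 1 to 3. WT replicates 1 and 2 and leptin replicate 2 lay close together and at least 1.78-fold above each of the others. The means of 63.0 ± 25.6 (SD, n = 3) and 51.8 ± 22.0 FPKM (SD, n = 3) gave a log2 fold change of -0.26 with an interval of -1.15 to 0.63 (exact permutation p = 0.9). Leaving out 1 library moved this from -0.03 (without leptin replicate 3) to -0.66 (without WT replicate 3), and without leptin replicate 2 it was -0.58. The spread of IFNGR1 within groups was at the 96.2nd percentile of the genes tested, the widest of the 8 chains.

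Across the 8 chains, no difference between the labelled groups passed a test. The adjusted limma p was 0.993 for each chain, and 0 of 8 had an unadjusted limma p under 0.05, against 341 of 10735 genes tested (3.18%) at that level and 1 gene (0.00932%) after adjustment. By direction, 1.98% of genes were at that level with higher values in the leptin group and 1.19% with lower values. All 8 chains passed the filter on low values. The labelled groups overlapped for each chain, whereas they did not overlap for 819 genes (7.63%), 5.0% higher and 2.63% lower. IL2RG and IL21R were higher in the leptin group and the other 6 lower, with a median log2 fold change of -0.15, beside 0.06 over all genes tested and 36.9% of all genes below 0. The intervals still allow, for IL4R and IFNGR1, a difference as low as -1.0 and -1.15. With 3 animals against 3, the exact test cannot go below a p of 0.1.

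Without both replicate 1 libraries, the differences were nearer 0 for 5 of the 6 chains that had been lower. The log2 fold changes were then 0.14 for IL2RG, -0.03 for IL7R, -0.11 for IL4R, -0.03 for IL21R, -0.05 for IL6R, -0.14 for IL6ST, -0.06 for IL10RA and 0.02 for IFNGR1. The signs of IL21R and IFNGR1 had turned. None of these chains had an unadjusted limma p under 0.05, against 2.32% of all genes in that setting, and the adjusted limma p was 0.999 for each. IL2RG alone did not overlap between the 4 remaining libraries, which was also true of 25.9% of all genes.

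**Figure D2:**
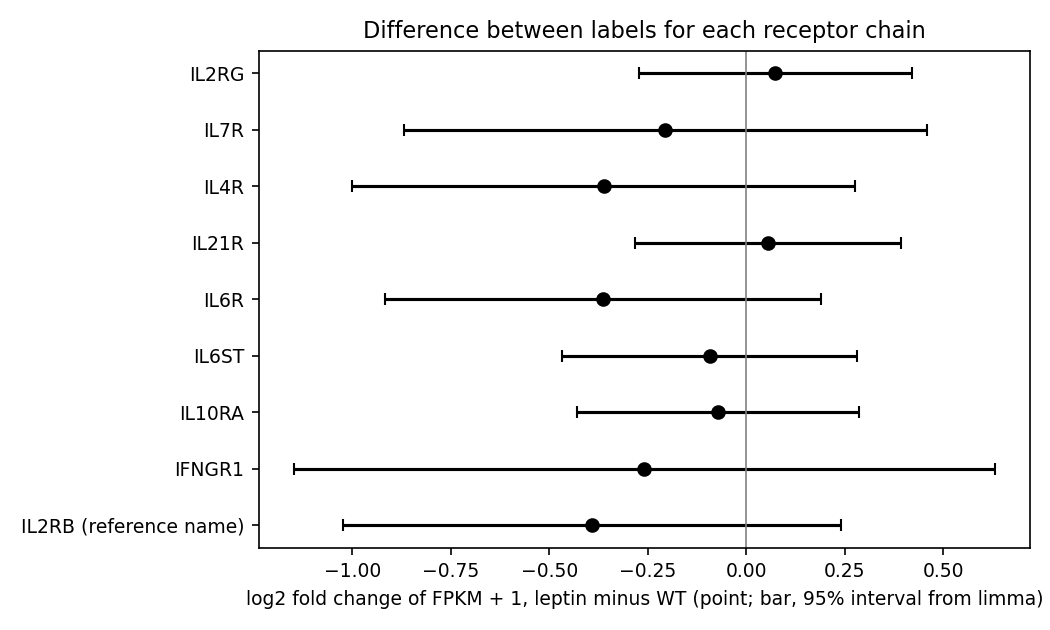
Log2 fold change (leptin minus WT, log2(FPKM + 1) scale) over all 6 libraries for each chain and the gene named IL2RB, as points with bars for the 95% limma interval. Each interval includes 0, and the widest, for IFNGR1, runs from -1.15 to 0.63.

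Several chains shared a set of highest libraries that crossed the labels. For 4 of the 8 chains, IL4R, IFNGR1, IL6R and IL10RA, the 3 highest libraries were WT replicates 1 and 2 and leptin replicate 2. The step to the fourth library was only 1.09-fold for IL6R and 1.01-fold for IL10RA. The share of all genes with this set was not counted, so it is not shown to be particular to these chains. Other receptor chains had the same set, among them CSF2RB (215, 230 and 237 against 121 to 127 FPKM), IL18RAP and TNFRSF1A, while others, such as IL27RA, did not. Summed T cell markers were lowest in WT replicate 2 and leptin replicate 2, at 1114 and 1009 FPKM, and were 1476 in WT replicate 1 and 1511 to 1730 in the other 3 libraries. Summed neutrophil markers were above the others in the same 3 libraries that led for IL4R and IFNGR1, at 3528, 695 and 1269 FPKM against 412 to 640. The step from 695 in WT replicate 2 to 640 in leptin replicate 3 was small. The sum mostly reflects S100A8, S100A9 and S100A12, at 699, 1031 and 1702 FPKM in WT replicate 1. S100A8 and S100A9 placed the same libraries highest. S100A12 (284 and 301 FPKM), LTF, MMP8 and MMP9 (38.5 and 55.6 FPKM) were lower in WT replicate 2 than in leptin replicate 3. ELANE was highest in leptin replicate 1. Summed monocyte markers were 966, 594 and 969 FPKM in WT replicates 1 and 2 and leptin replicate 2 and 411, 571 and 667 in the others, which overlap. The part of these cell types in the levels of the chains was not tested.

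IL7R, IL6ST and the gene named IL2RB were each lowest in leptin replicate 2, with different orders of the other libraries. Summed T cell markers were also lowest in leptin replicate 2. IL7R and IL2RB were highest in WT replicate 1 and IL6ST in WT replicate 3. Summed NK and cytotoxic markers were 689.9, 314 and 729 FPKM in WT replicates 1 to 3 and 543, 447 and 698 in leptin replicates 1 to 3. These sums were highest in WT replicate 3, where IL7R was at 28.0 FPKM and the gene named IL2RB at 46.9 FPKM. They were lowest in WT replicate 2 and leptin replicate 2, as was the gene named IL2RB. The 10 NK and cytotoxic marker genes had 12 tested entries, since GZMA and NCR1 each had a pair. Of these entries, 7 were higher and 5 lower in the leptin group, with a median log2 fold change of 0.08. Without both replicate 1 libraries this turned to 4 higher and 8 lower, with a median of -0.12. CD244, an NK cell receptor, was the only 1 of 59 tested marker gene entries (1.69%, against 3.18% of all genes) with an unadjusted limma p under 0.05. It was at 16.3, 16.0 and 23.8 FPKM in WT replicates 1 to 3 and at 28.1, 26.3 and 31.2 in leptin replicates 1 to 3, a log2 fold change of 0.60 without overlap (an unadjusted limma p of 0.0116 and an adjusted limma p of 0.993). Without both replicate 1 libraries its log2 fold change was 0.53, with an unadjusted limma p of 0.0775, and 2 B cell and 3 monocyte marker genes then had such a p under 0.05. Whether NK cell content enters the receptor levels was not tested.

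**Figure D3:**
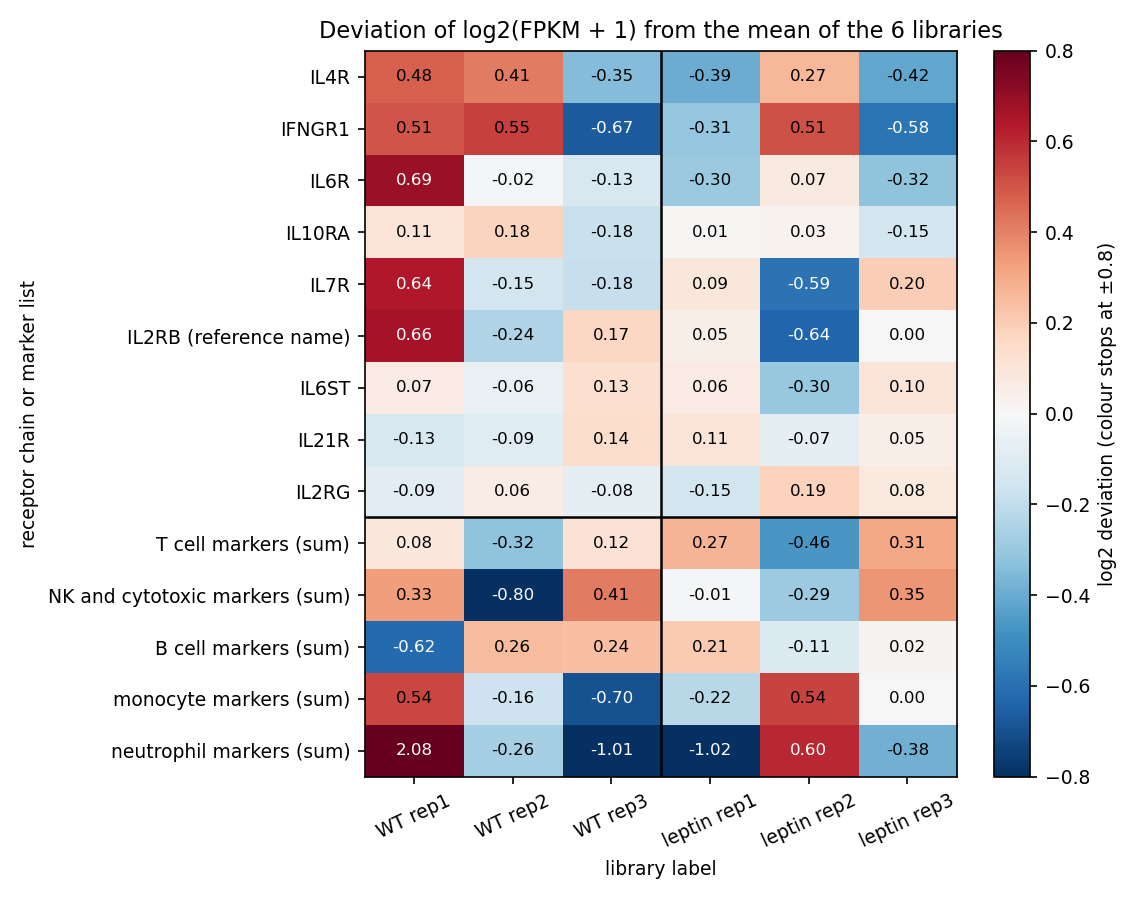
Deviation of log2(FPKM + 1) from its mean over the 6 libraries for each chain (above the line) and for summed cell type markers (below it), with libraries in columns, the value printed in each cell and colour for its sign and size up to the ends of the scale. IL4R and IFNGR1 are above their means in WT replicates 1 and 2 and leptin replicate 2 and below in the other 3, and IL7R is lowest in leptin replicate 2.

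Because FPKM is per length, chains of 1 receptor could be set against each other within a library, in 5 pairs. The denominator was the shared chain IL2RG or IL6ST. IL4R reached 0.915, 0.788 and 0.510 of the IL2RG level in WT replicates 1 to 3 and 0.519, 0.652 and 0.437 in leptin replicates 1 to 3. IL4R thus stayed below IL2RG in all 6 libraries and came nearest to it in WT replicate 1. The log2 difference between groups was -0.44 (exact permutation p = 0.3, 0.75 after Benjamini-Hochberg adjustment over the 5 pairs).

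The other chains set against IL2RG were much less abundant than it. IL7R was at 0.0382 to 0.112 of the IL2RG level and the gene named IL2RB at 0.0485 to 0.148, both lowest in leptin replicate 2 and highest in WT replicate 1. IL21R was at 0.00787 to 0.0115, with group means of 0.00962 ± 0.00150 (SD, n = 3) and 0.00962 ± 0.00184 (SD, n = 3). The pair of IL6R and IL6ST had the opposite balance, since IL6R exceeded IL6ST 7.0-fold to 14.8-fold in every library. With the larger gene named IL6R, an alternative chosen after seeing the data, the ratio was 12.1 to 30.04, with a log2 difference between groups of -0.019 (exact permutation p = 1). The ratios of all 5 pairs overlapped between groups, with exact permutation p of 0.3 to 1 and adjusted values of 0.75 to 1. Without both replicate 1 libraries the log2 differences were -0.18 for IL7R, -0.25 for IL4R, -0.18 for IL21R and -0.43 for IL2RB over IL2RG, and 0.12 for IL6R over IL6ST, where the sign had turned. With 1 library left out, IL7R over IL2RG ran from -0.48 to 0.042, with signs above 0 without WT replicate 1 (0.017) or leptin replicate 2 (0.042). IL21R over IL2RG ran from -0.15 to 0.13, above 0 without WT replicate 3 or leptin replicate 2. IL4R over IL2RG (-0.68 to -0.26), IL2RB over IL2RG (-0.75 to -0.17) and IL6R over IL6ST (-0.55 to -0.0070) kept their sign.

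**Figure D4:**
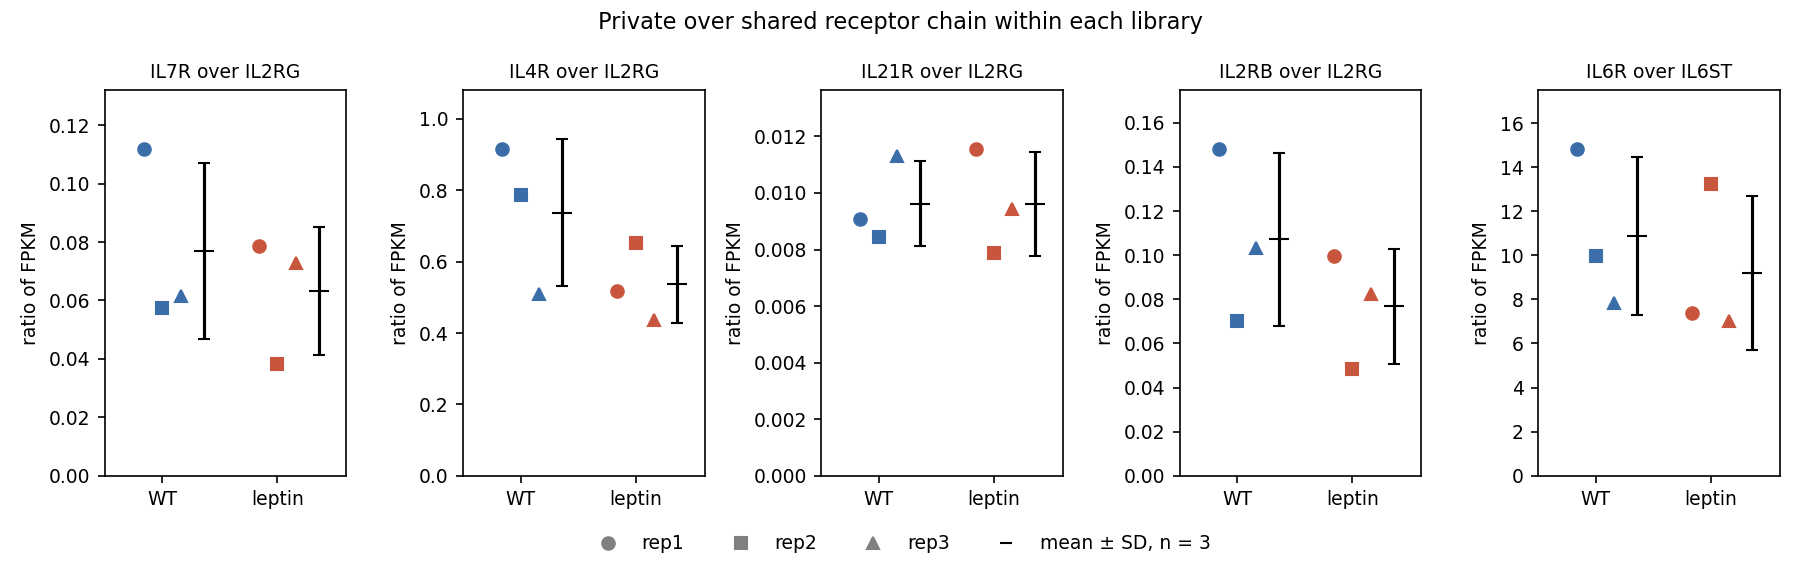
Ratio of a receptor chain to the shared chain IL2RG or IL6ST (FPKM over FPKM, linear axes from 0) in each library for 5 receptor pairs, with blue points for WT, red points for leptin, marker shape for the replicate number and bars for mean ± SD (n = 3). The IL6R over IL6ST ratio lies above 1 in every library, the ratios over IL2RG lie below 1, and the labelled groups overlap in each pair.

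Of the partner chains of these receptors, IL13RA1, which joins IL4R in the type II IL-4 receptor, was at 95.9, 110 and 52.3 FPKM in WT replicates 1 to 3 and at 60.5, 103 and 70.1 in leptin replicates 1 to 3. Its 3 highest libraries were those of IL4R, and its log2 fold change was -0.11 (an unadjusted limma p of 0.732), turning to 0.16 without both replicate 1 libraries. IL2RA, the high-affinity IL-2 receptor chain of regulatory and activated T cells, had a pair of genes in the table, at 1.65 to 4.14 and 0.686 to 4.30 FPKM, with log2 fold changes of 0.22 and 0.39. The first was at 0.41 without both replicate 1 libraries, and the second then missed the filter on low values. IL15RA, IL10RB, IFNGR2 and IFNAR2 were not analysed here.

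The other genes of the pathway were taken from 4 lists, and none had an unadjusted limma p under 0.05. Among 22 tested gene entries of other cytokine receptor chains, 6 were higher and 16 lower in the leptin group, with a median log2 fold change of -0.10. IL2RA and IL1R2 each have a pair of entries among them. Among 5 tested ligands of the receptors, 3 were higher and 2 lower, with a median of 0.16. The 16 receptor-induced and feedback genes were split 8 and 8, with a median of 0.00. Without both replicate 1 libraries, OSM (oncostatin M, a ligand of gp130) at a log2 fold change of 0.56 and IL1RL1, the IL-33 receptor, at -0.78 had an unadjusted limma p under 0.05, with an adjusted limma p of 0.999 for each. That is 2 genes, beside 2.32% of all genes in the same setting. The list medians were then -0.14 for the other receptor chains, 0.13 for the ligands, 0.05 for the induced and feedback genes and -0.07 for the JAKs and STATs.

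Of 11 tested gene entries listed as JAKs and STATs, the kinases and transcription factors below these receptors, 3 were higher and 8 lower, with a median of -0.11. These entries stand for 9 genes, since STAT5A had 3 of them, at log2 fold changes of 0.01, -0.12 and -0.24. JAK3, the kinase bound to IL2RG, was at 134 to 168 FPKM with a log2 fold change of 0.06, TYK2 at 129 to 166 FPKM with -0.06, and JAK2, which serves IFNGR1 through its partner chain, at 23.4 to 32.6 FPKM with -0.14. JAK1, the kinase of IL4R, IL7R, IL21R, IL10RA and IFNGR1, was named from the reference table. It was at 77.0, 78.2 and 76.5 FPKM in WT replicates 1 to 3 and at 73.2, 58.4 and 69.5 in leptin replicates 1 to 3, without overlap but with a limma p of 0.191 for a log2 fold change of -0.21. Without both replicate 1 libraries the log2 fold changes were -0.07 for JAK3, where the sign had turned, -0.04 for TYK2, -0.11 for JAK2 and -0.28 for JAK1. IL17RA, TGFBR2 and PIM2 also did not overlap between the groups, so that 4 of the 54 tested entries of the lists did not, beside 7.63% of all genes. These 3 genes are named after their values were seen.

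**Figure D5:**
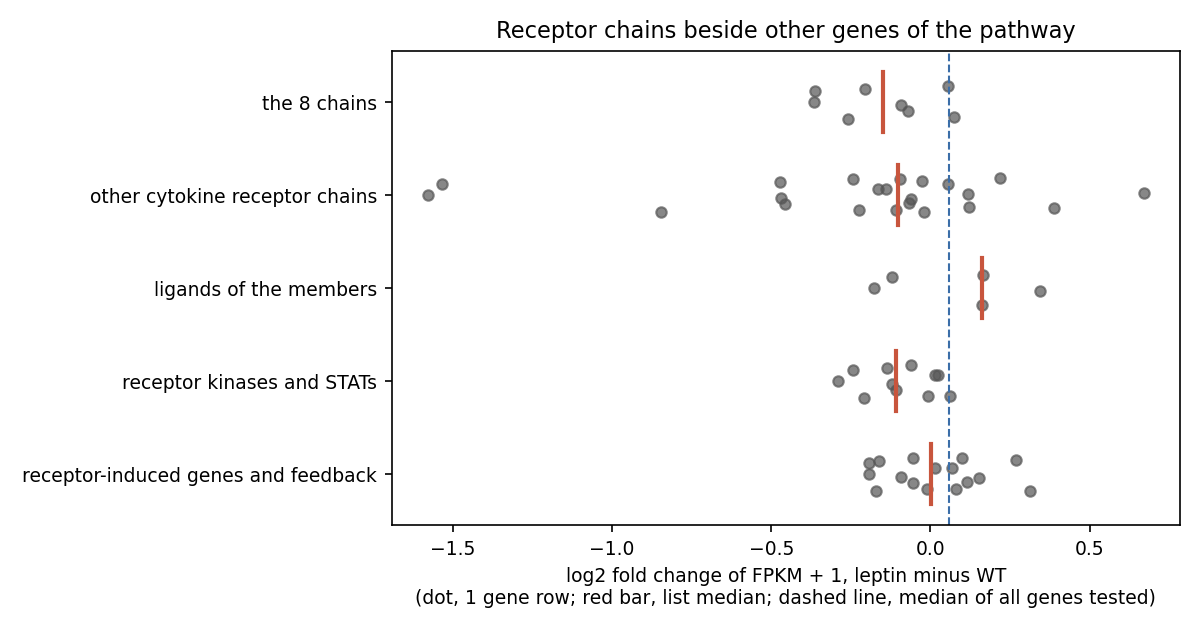
Log2 fold change (leptin minus WT, log2(FPKM + 1) scale) of every tested gene entry among the receptor chains and in 4 lists of their pathway, 1 dot per entry, with a red bar for the median of each list and a dashed line for that of all genes tested. The medians run from -0.15 for the chains to 0.16 for the ligands, against 0.06 over all genes tested.

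In the table's own annotation all 8 chains carried the pathway entries for cytokine receptor interaction and JAK-STAT signalling, 3 (IL7R, IL4R and IL6R) carried hematopoietic cell lineage, and 2 (IL2RG and IL7R) carried primary immunodeficiency. The gene with a symbol whose profile was most like that of each chain was found by Pearson's r of log2(FPKM + 1) over the 6 libraries among 7108 genes, as a description only, since every gene shares the same 6 libraries. It was SOD2, the mitochondrial superoxide dismutase, for IL4R (r = 0.997), and CAPN3, a calpain protease, for IFNGR1 (r = 0.990). For the other chains it was SLC25A28 for IL2RG (0.974), ZBTB21 for IL7R (0.978), PHYKPL for IL21R (0.997), E2F3 for IL6R (0.987), CCDC84 for IL6ST (0.996) and STK3 for IL10RA (0.983). With 6 points such values are common: 501 genes reached an r of 0.9 with IL21R, 104 with IL4R and 21 with IL2RG.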

How the data were processed

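PBMC RNA was sequenced from strand-specific, paired-end libraries of 6 pigs. The paper states that the authors aligned reads with Bowtie to the Ensembl transcriptome and quantified them with RSEM, whereas the submitters' processing notes name FastQC, STAR 2.5, Cuffnorm and DESeq 1.22.1. They deposited 1 FPKM value per gene and library. The deposited log2 fold changes, p-values and FDR are the authors' own comparison and were not used. The table names no genome build, and coordinates are as it gives them. Names for 1504 of 4000 genes without a symbol came from a RefSeq table of Sscrofa11.1, and sequences were not used here.

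Members and gene lists were chosen with earlier results of these data known. The 10735 of 11564 genes that reached 1 FPKM in 3 or more libraries were fitted with limma 3.58.1 in R 4.3.3 on log2(FPKM + 1), two-sided, with Benjamini-Hochberg adjustment over all genes tested. Single chains and ratios were compared by two-sided exact permutation test (SciPy 1.17.1, Python 3.11.15). This scale understates changes of low genes. Genes named are the chains, their partner chains, JAKs and TYK2, list genes with an unadjusted p under 0.05, and the most similar gene of each chain. The few others were named after their values were seen. In simulated data for this comparison with 200 of 10735 genes changed, 0 were recovered at an adjusted p under 0.05 for a log2 fold change of 0.5, 104 for 1 and 184 for 2. Unchanged genes called at that level numbered 0, 10 and 13. Each simulated gene varied independently with its own observed spread, so patterns that genes share across libraries were not simulated. Alternatives covered pseudocount, filter, scaling, variance trend, replicate block, and libraries left out.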

Additional observations from a re-analysis of the deposited data

How the results depend on the processing

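No chain had an adjusted limma p under 0.05 in any of 13 alternatives, and the chains' median log2 fold change stayed below 0, from -0.26 to -0.04, in those and in the 1 with IL2RB added. That one, and the use of the larger gene named IL6R, were chosen after seeing the data. Leaving out 1 library at a time gave 0 to 1 chains with an unadjusted limma p under 0.05 (1, IL4R, without WT replicate 3) and 0 to 3 chains without overlap. The latter were IL4R, IL21R and IL10RA without WT replicate 3 (26.8% of all genes), IL2RG without leptin replicate 1 (12.3%), and IL4R and IL6R without leptin replicate 2 (18.7%), and 1, IL2RG, without both replicate 1 libraries. Signs turned for IL7R (0.063 without WT replicate 1, 0.040 without leptin replicate 2), IL6ST (0.036 without leptin replicate 2), IL21R (-0.034) and IFNGR1 (0.021) without both replicate 1 libraries, and the larger gene named IL6R (0.026 without WT replicate 1, 0.13 without both). The cause was not tested. With 1 library left out, these ran from -0.36 to 0.063 for IL7R, -0.17 to 0.036 for IL6ST and -0.36 to 0.026 for the larger gene named IL6R. For the other genes of the pathway, the count with an unadjusted limma p under 0.05 was 1 with a pseudocount of 0.1 (3.15% of all genes), 1 with FPKM of at least 1 in every library (3.26%), 1 with median-of-ratios scaling (3.88%), 2 without both replicate 1 libraries (2.32%) and 1 to 5 with 1 library left out (2.34% to 7.99%, the 5 and the 7.99% without WT replicate 3), and after adjustment 0 to 1 (IL1R2 without WT replicate 3). Median-of-ratios scaling moved the median of all genes from 0.06 to 0.00.

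The replicate numbers belong to different animals, and deviations of same-numbered libraries correlated at -0.28, 0.13 and -0.01, so the numbers were not taken as pairs. With a replicate block, 0 chains and 4 other pathway genes had an unadjusted limma p under 0.05 (3.58% of all genes), and the chains' median remained -0.15.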

Other observations

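IL1R2, the decoy receptor that binds IL-1 without signalling, has a pair of genes in the table, and they are named here after their values were seen. The first was at 23.2 and 26.6 FPKM in WT replicates 1 and 2, at 1.63 in WT replicate 3, and at 2.51, 3.82 and 2.89 in leptin replicates 1 to 3. The second was at 35.3 and 41.3 FPKM in WT replicates 1 and 2, at 3.27 in WT replicate 3, and at 5.89, 8.34 and 3.21 in leptin replicates 1 to 3. WT replicates 1 and 2 thus stood above the other 4 libraries for both, and WT replicate 3 lay among the leptin libraries or below them. The log2 fold changes were -1.58 and -1.53 over all 6 libraries (unadjusted limma p of 0.0817 and 0.0919, adjusted limma p of 0.993 for each). Without WT replicate 3 they were -2.68 (adjusted limma p of 0.00615) and -2.60 (adjusted limma p of 0.104), in a setting where 7.99% of all genes had an unadjusted limma p under 0.05 and 3 genes an adjusted one. Without both replicate 1 libraries they were -0.98 and -1.10, with an adjusted limma p of 0.999 for each. Summed neutrophil markers were 3528, 695 and 413 FPKM in WT replicates 1 to 3 and 412, 1269 and 640.2 in leptin replicates 1 to 3, and their part in these values was not tested. IL1RAP, the signalling partner chain of the IL-1 receptor, was at 11.6 and 14.4 FPKM in WT replicates 1 and 2 and at 2.58 to 5.95 in the other 4 libraries. Its log2 fold change was -0.85 (unadjusted limma p of 0.135, adjusted limma p of 0.993). Without WT replicate 3 it was -1.48 (adjusted limma p of 0.453), and without both replicate 1 libraries -0.37 (unadjusted limma p of 0.597).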
